A study of Mus musculus with 24 samples.

Results

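Neuronal nuclei of kainate-injected mice were compared with neuronal nuclei of sham-injected mice 24 hours after the injection. The libraries were the 3 kainate (KA) and 3 sham (SH) mRNAseq libraries of NeuN+ nuclei, selected by their labels as 6 of the 24 samples of the series; all 53379 genes of the count table were considered. NeuN is a nuclear RNA-binding protein of most mature neurons, encoded by Rbfox3. Kainate is an agonist of glutamate receptors, which evokes status epilepticus when it is injected beside the hippocampus, and both treatments were given to adult male C57/BL6N mice, acquired at 8 weeks of age and acclimatized for 4 weeks. SH mice received saline in the same way. KA mice without convulsive seizures had been left out by the authors, so that the KA group holds responding animals. Right hippocampi of 8 mice per treatment were combined into pools, with 4 mice in replicate 1 and 2 mice each in replicates 2 and 3. A value thus belongs to a pool of mice, and to nuclear RNA of sorted nuclei of all hippocampal fields together.

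Strong synaptic activity raises calcium in neurons and activates kinases that phosphorylate transcription factors already present in the nucleus, such as CREB and SRF. These switch on immediate early genes within minutes, many of which encode further transcription factors (Fos, Jun, Egr and Nr4a families), and late response genes follow, which encode secreted peptides, synaptic proteins and signalling feedback proteins. In the hippocampus the granule cells of the dentate gyrus are known for a strong response of this kind after seizures.

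Of 37598 genes tested, 105 were upregulated (0.279%) and 23 downregulated (0.0612%) in KA neurons at a false discovery rate (FDR) below 0.25, by edgeR's quasi-likelihood test with Benjamini-Hochberg adjustment. With the replicate number as a block, which pairs the KA and SH pool of the same number, 730 genes were upregulated (1.94%) and 417 downregulated (1.11%). All 128 genes of the first fit were also called in the same direction with the block, and none of them had overlapping KA and SH values. Over all genes tested, the 3 KA libraries lay above the 3 SH libraries in 5.27% of genes and below them in 4.45%. The median log2 fold change (logFC, KA over SH) of all genes was close to 0, at 0.05 with the block. Of the 128 genes, 116 were protein-coding.

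The number of calls depended on single libraries. Without KA replicate 3 the counts were 15 upregulated and 0 downregulated, and without SH replicate 1 they were 10 and 1. They were 126 and 17 without KA replicate 1, 45 and 2 without KA replicate 2, 26 and 14 without SH replicate 2, and 37 and 1 without SH replicate 3. With the block and without pair 3, 167 genes were upregulated and 26 downregulated. The 9 genes called in each of these 6 leave-one-out fits were Acan, Col27a1, Gal, Inhba, Pappa, Sdc1, Socs3, Timp1 and Trh, all upregulated, while 11 of the 128 genes were called in none of them. Below, the number of fits out of 6 in which a gene was called, and the range of its logFC over them, refer to these fits. Total counts ranged from 11232035 in KA replicate 1 to 36959237 in SH replicate 3. Levels are given as TMM-scaled CPM (read counts per 1000000 counts), always for replicates 1, 2 and 3 in this order, and as mean ± SD (n = 3).

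Members of 37 gene lists were followed, 861 genes in all, which held 61 of the 128 called genes (54 upregulated and 7 downregulated). Upregulated members were most frequent in the lists of activity-regulated effectors (8 of 20), AP-1 factors (4 of 13), Egr, Nr4a and related transcription factors (5 of 19) and injury-associated genes (6 of 24). The largest share of downregulated members was that of dentate granule cell genes (3 of 10). Over all genes tested, 0.279% were upregulated and 0.0612% downregulated, and 1.94% and 1.11% with the block. The lists were chosen with earlier results of these data known, so their counts, their medians and the order of their shares are a description only. Of the dentate calls, Plk5 and Stxbp6 are also among the downregulated neuronal genes of the paper.

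**Figure D1:**
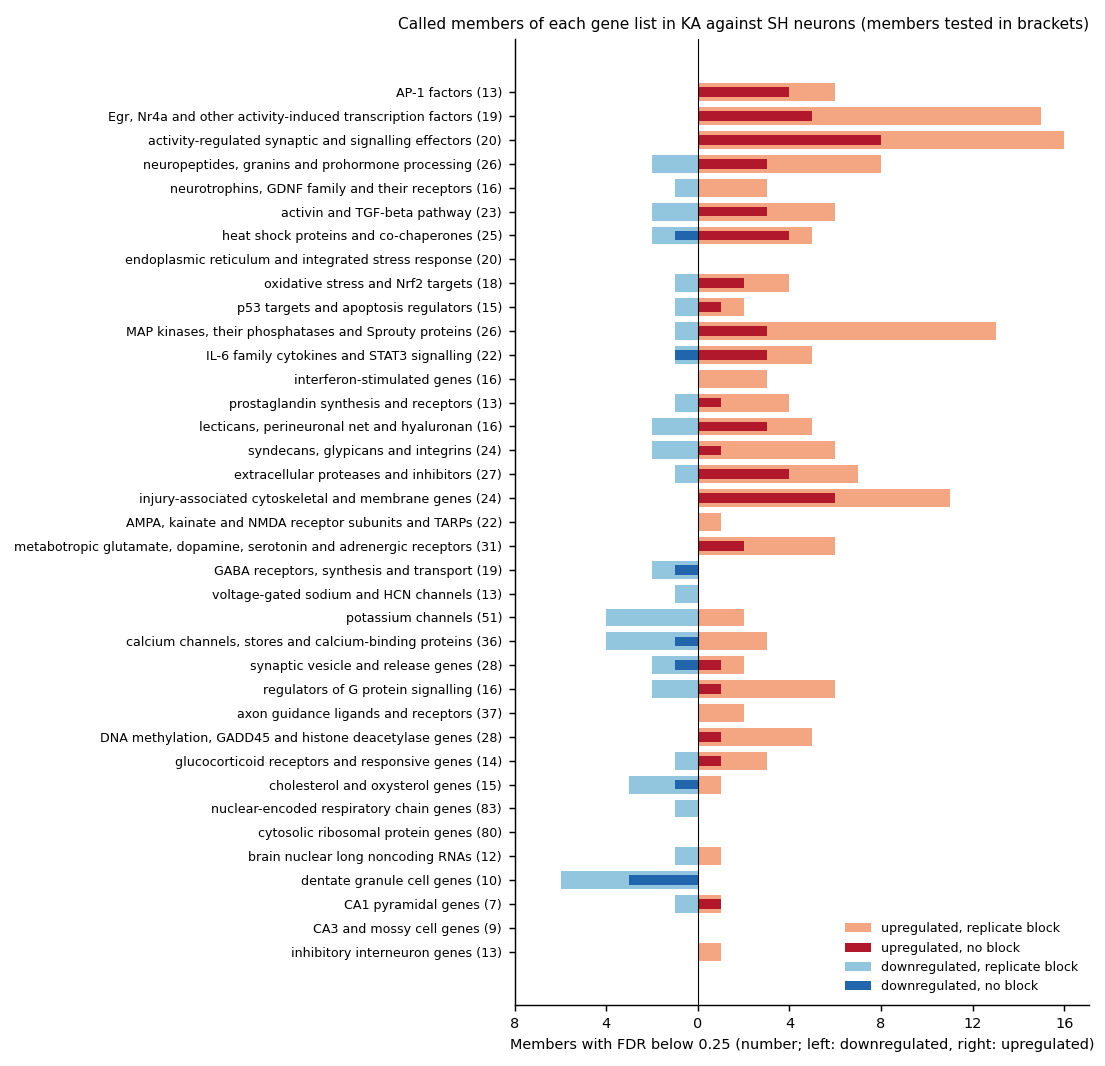
Number of called members (FDR below 0.25) in each of the 37 gene lists, KA against SH neurons, with the number of members tested in brackets. Bars to the right are upregulated and bars to the left downregulated members; dark bars are the fit without the replicate block and pale bars the fit with it. The effector list reached 8 and 16 upregulated members and the dentate granule cell list 3 and 6 downregulated members.

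Several activity-induced transcription factors rose in KA neurons. Of 13 AP-1 factors, which bind DNA as dimers of Fos, Jun and ATF proteins, 4 were upregulated (Fos, Fosb, Fosl2 and Atf3) and none downregulated, and 6 with the block (Jun and Junb in addition). The median logFC of the list was 1.13. Fos (ENSMUSG00000021250, chr12:85473890-85477273) stood at 23.2, 12.01 and 12.5 CPM in the SH and 89.9, 154 and 192 CPM in the KA libraries and did not overlap between groups. Its mean rose from 15.9 ± 6.32 to 145 ± 51.7 CPM (logFC 3.19, SE 0.64, FDR 0.0943, called in 1 of 6 fits with logFC 2.94 to 3.57). Fosb, which gives rise to the long-lived ΔFosB protein by splicing, had 1.63, 4.26 and 2.78 CPM in the SH and 23.1, 16.9 and 36.8 CPM in the KA libraries (logFC 3.14, SE 0.55, FDR 0.0527, called in 3 of 6 fits with logFC 2.78 to 3.53). KA replicate 3 was again the highest, and the groups did not overlap. Fosl2, a Fos-related factor with later and longer expression, rose from 20.7 ± 7.64 to 88.4 ± 10.4 CPM (logFC 2.09, SE 0.40, FDR 0.0742, called in 3 of 6 fits with logFC 1.82 to 2.33). Atf3, a factor induced by axonal injury and cell stress, had 0.363, 2.32 and 0.653 CPM in the SH and 14.3, 13.8 and 42.1 CPM in the KA libraries (logFC 4.37, SE 0.99, FDR 0.169, called in 1 of 6 fits with logFC 3.63 to 5.48). KA replicate 3 was by far the highest library for this gene. Junb and Jun were called with the block only (logFC 1.96, FDR 0.590, and 0.0646 with the block for Junb; logFC 1.06, FDR 1.00, and 0.184 with the block for Jun). The count of 4 became 0 without KA replicate 3 or SH replicate 1, 1 without SH replicate 2 or SH replicate 3, 2 without KA replicate 2.

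Among 19 Egr, Nr4a and other activity-induced factors, 5 were upregulated and none downregulated, with a median logFC of 1.60; with the block 15 were upregulated. KA libraries lay above SH libraries for 16 members, against 5.27% of all genes tested. Npas4 (ENSMUSG00000045903, chr19:4984355-4990316), a neuron-specific factor that responds to calcium entry, had 19.7, 16.7 and 21.8 CPM in the SH and 138, 197 and 252 CPM in the KA libraries, with a narrow SH range and no overlap. It rose from 19.4 ± 2.59 to 196 ± 56.9 CPM (logFC 3.33, SE 0.57, FDR 0.0455, called in 4 of 6 fits with logFC 3.11 to 3.54). Nr4a1 (ENSMUSG00000023034, chr15:101254269-101274795), an orphan nuclear receptor, had 50.6, 34.7 and 74.01 CPM in the SH and 158, 154 and 190.4 CPM in the KA libraries (logFC 1.66, SE 0.36, FDR 0.145, called in 2 of 6 fits with logFC 1.43 to 1.97). The KA libraries were close to each other here. Egr2, a zinc finger factor, rose from 4.15 ± 0.829 to 19.3 ± 5.35 CPM (logFC 2.22, SE 0.51, FDR 0.187, called in 0 of 6 fits with logFC 2.00 to 2.41), Csrnp1, an AXIN1-induced nuclear protein, from 12.7 ± 2.48 to 63.8 ± 20.4 CPM (logFC 2.32, SE 0.54, FDR 0.196, called in 1 of 6 fits with logFC 2.03 to 2.48) and Btg2, an antiproliferative coregulator, from 40.04 ± 12.1 to 125 ± 41.6 CPM (logFC 1.64, SE 0.39, FDR 0.202, called in 1 of 6 fits with logFC 1.35 to 1.83). The block added Egr1, Egr3, Egr4, Nr4a2, Ier2, Ier5, Klf4, Klf10, Nfil3 and Myc. Of these, Egr4 had logFC 1.88, FDR 0.00110 in the blocked fit, Ier5 logFC 1.54, FDR 0.0102 and Ier2 logFC 2.30, FDR 0.0149. The count of 5 became 0 without SH replicate 1 or SH replicate 2, 1 without KA replicate 2 or KA replicate 3, 2 without SH replicate 3, and the blocked count of 15 became 5 without pair 3.

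The list of activity-regulated effectors had the most upregulated members. Of 20 genes, 8 were upregulated without the block (Nptx2, Ptgs2, Arc, Rrad, Rgs4, Sik1, Sorcs3 and Gpr3) and 16 with it, and none was downregulated in either fit. KA libraries lay above SH libraries for 18 members, against 5.27% of all genes tested, and the median logFC was 1.53. Arc (ENSMUSG00000022602, chr15:74669083-74672570), whose protein drives removal of AMPA receptors from synapses and forms capsid-like particles, had 137, 91.9 and 186 CPM in the SH and 530.0, 753 and 1042 CPM in the KA libraries. The SH and KA values did not overlap (logFC 2.49, SE 0.48, FDR 0.0742, called in 3 of 6 fits with logFC 2.21 to 2.76). Ptgs2 (ENSMUSG00000032487, chr1:150100031-150108227), which encodes the inducible cyclooxygenase of prostaglandin synthesis, had 38.7, 38.5 and 62.3 CPM in the SH and 403, 338 and 330.3 CPM in the KA libraries. Its mean rose from 46.5 ± 13.7 to 357 ± 40.1 CPM (logFC 2.94, SE 0.46, FDR 0.0335, called in 5 of 6 fits with logFC 2.82 to 3.21), and KA replicate 1 was the highest library. Nptx2, a secreted pentraxin that clusters AMPA receptors, had 394, 364 and 588 CPM in the KA libraries and a mean of 36.8 ± 2.66 CPM in SH (logFC 3.61, SE 0.59, FDR 0.0369, called in 5 of 6 fits with logFC 3.36 to 3.74). The gene Rrad, for a small GTPase that inhibits calcium channels, was almost silent in SH, with 0, 0.632 and 0.286 CPM in the SH and 3.84, 6.42 and 13.3 CPM in the KA libraries (logFC 4.62, SE 0.92, FDR 0.0929, called in 3 of 6 fits with logFC 4.01 to 5.62). KA replicate 1 was the lowest KA library and still above every SH library.

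Rgs4, a GTPase activator that shortens G protein signals, rose from 66.5 ± 10.7 to 335 ± 153 CPM (logFC 2.33, SE 0.48, FDR 0.111, called in 1 of 6 fits with logFC 1.94 to 2.62). Sorcs3, a sorting receptor of the VPS10 family at postsynaptic sites, rose from 89.4 ± 16.1 to 458 ± 224 CPM (logFC 2.36, SE 0.55, FDR 0.187, called in 1 of 6 fits with logFC 1.92 to 2.65). For the kinase gene Sik1, which restrains CREB coactivators, the means went from 11.6 ± 6.77 to 51.7 ± 10.01 CPM (logFC 2.16, SE 0.45, FDR 0.110, called in 2 of 6 fits with logFC 1.89 to 2.75), and for Gpr3, a constitutively active receptor coupled to adenylyl cyclase, from 12.2 ± 4.89 to 46.8 ± 13.2 CPM (logFC 1.94, SE 0.40, FDR 0.109, called in 2 of 6 fits with logFC 1.69 to 2.31). With the block, Bdnf, Synpo, Pcsk1, Homer1, Rgs2, Lingo1, Nrn1 and Plk2 were added, with logFC of 0.76 to 1.69. Bdnf, the neurotrophin that binds TrkB, had 113, 45.5 and 70.1 CPM in the SH and 221, 187 and 292 CPM in the KA libraries (logFC 1.61, FDR 0.353, and 0.00355 with the block); 14.4% of its exonic bases are overlapped by a gene on the other strand. Homer1, whose short activity-induced form uncouples postsynaptic scaffolds, was counted over all isoforms and had 131, 138 and 207 CPM in the SH and 484, 327 and 342 CPM in the KA libraries (logFC 1.28, FDR 0.641, and 0.0235 with the block). The count of 8 became 0 without SH replicate 1, 2 without KA replicate 3, 3 without SH replicate 2, 4 without KA replicate 2, 5 without SH replicate 3.

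**Figure D2:**
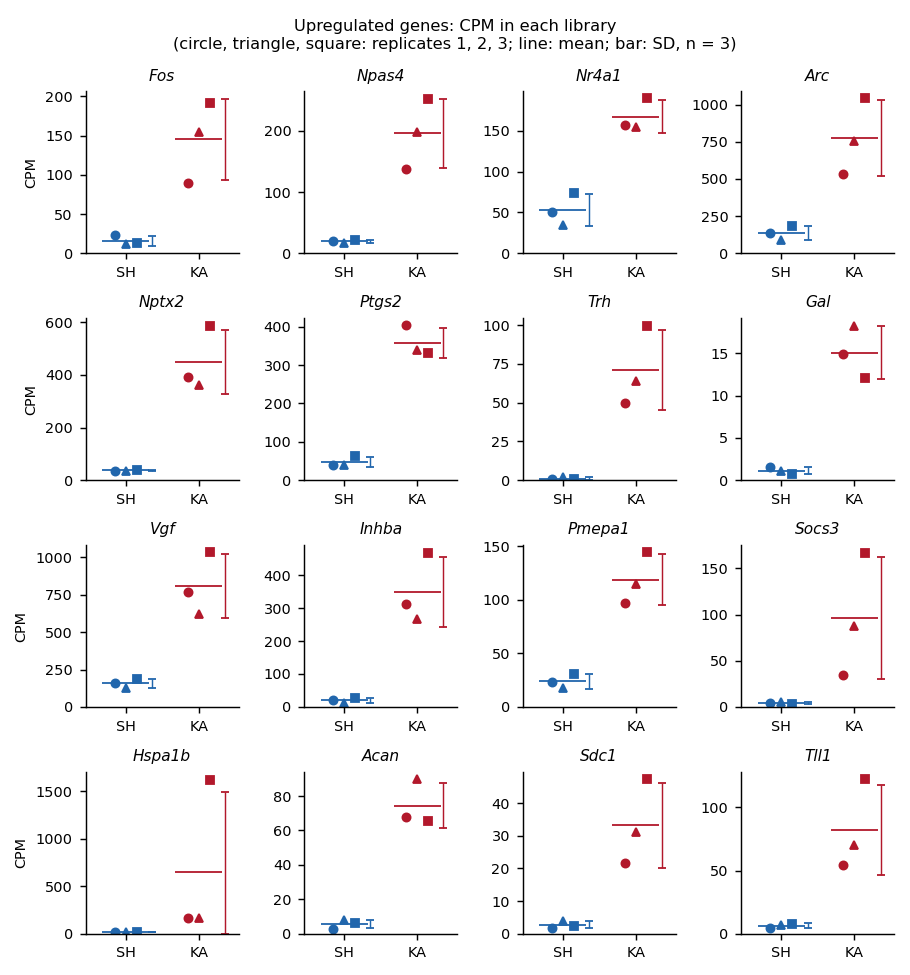
CPM (TMM-scaled read counts per 1000000) of 16 upregulated genes in each of the 3 SH and 3 KA libraries of neurons; symbols mark replicates 1 to 3, horizontal lines the mean and bars the SD (n = 3), drawn down to 0 at most, and each axis starts at 0. All KA points lie above all SH points in each panel, and for Hspa1b KA replicate 3 stands at 1621 CPM against 167 and 165 in the other KA libraries.

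Reads over the hairpins of miR-132 and miR-212, miRNAs known to be induced through CREB, were also higher in KA neurons. Both hairpins lie on chromosome 11 and share the seed (bases 2 to 8 of the mature miRNA, in capitals), which is the part that pairs with target RNAs. The mature sequences of the 3p arms, from RefSeq on GRCm38.p6, are shown because this common seed makes them 1 family of regulators.
mmu-miR-132-3p (chr11:75173723-75173744, plus strand): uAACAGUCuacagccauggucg
mmu-miR-212-3p (chr11:75173443-75173464, plus strand): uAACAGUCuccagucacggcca
Reads over the Mir132 hairpin amounted to 0.908, 1.39 and 2.73 CPM in the SH and 9.05, 16.5 and 25.97 CPM in the KA libraries (logFC 3.34, SE 0.77, FDR 0.187, called in 1 of 6 fits with logFC 2.92 to 3.89). For Mir212 they amounted to 0.968, 1.14 and 2.25 CPM in the SH and 6.15, 12.1 and 20.98 CPM in the KA libraries, and the gene was called with the block only (logFC 3.17, FDR 0.531, and 0.00139 with the block). Mir132 was low in every SH library and Mir212 likewise, without overlap with KA. These reads come from nuclear RNA of the host transcript, and mature miRNAs were not measured.

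Neuropeptide genes divided into a small upregulated group and a larger group without a call. Of 26 genes of neuropeptides, granins and prohormone processing, 3 were upregulated (Trh, Gal and Vgf), with the block 8 (Chga, Scg2, Pcsk1, Penk and Npy in addition) and 2 downregulated (Scg5 and Cck). The median logFC was 0.12, and 13 genes had a positive and 13 a negative logFC. Trh (ENSMUSG00000005892, chr6:92242061-92244650), the precursor of thyrotropin-releasing hormone, had the largest logFC of all called genes (logFC 6.12, SE 0.85, FDR 0.0174, called in 6 of 6 fits with logFC 5.78 to 7.10), with 49.7, 64.1 and 99.5 CPM in KA. In SH it was at 0.545, 1.98 and 0.490 CPM. Gal (ENSMUSG00000024907, chr19:3409915-3414544), the precursor of galanin, an inhibitory peptide in the hippocampus, had 1.51, 1.10 and 0.735 CPM in the SH and 14.9, 18.3 and 12.03 CPM in the KA libraries (logFC 3.76, SE 0.58, FDR 0.0274, called in 6 of 6 fits with logFC 3.53 to 4.03). Both were low in all SH libraries and higher in all 3 KA libraries. Vgf (ENSMUSG00000037428, chr5:137026392-137033351), a granin-like precursor of several secreted peptides and expressed in all SH libraries, had 162, 124 and 187 CPM in the SH and 768, 619 and 1036 CPM in the KA libraries (logFC 2.36, SE 0.47, FDR 0.0929, called in 2 of 6 fits with logFC 2.14 to 2.52).

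Chga and Scg2, granins of dense-core vesicles, rose with the block to logFC 1.54 and 1.60 (FDR 0.00782 and 0.0119; without the block 0.641 and 1.00). Pcsk1, the convertase that cleaves these precursors, had 32.8, 23.9 and 35.8 CPM in the SH and 76.02, 61.4 and 118 CPM in the KA libraries (logFC 1.47, FDR 0.703, and 0.0183 with the block). For Npy, a peptide of interneurons, the libraries held 50.3, 11.2 and 12.4 CPM in the SH and 69.2, 53.2 and 67.4 CPM in the KA libraries (logFC 1.36, FDR 1.00, and 0.0372 with the block). Penk, the precursor of enkephalins, had 100.1, 41.01 and 47.4 CPM in the SH and 193, 253 and 359 CPM in the KA libraries (logFC 2.09, FDR 0.469, and 0.0297 with the block). Downregulated with the block were Cck (logFC -1.06, FDR 1.00, and 0.189 with the block), a peptide of interneurons and pyramidal cells, and Scg5 (logFC -1.14, FDR 1.00, and 0.0927 with the block), the chaperone of the convertase PCSK2. The blocked counts were 8 up and 2 down and became 4 without pair 3 for up and 0 without pair 1 or pair 3 for down.

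Promoters of these genes were searched for 2 motifs, the full cAMP response element (CRE, TGACGTCA, the same on both strands), which CREB binds, and the AP-1 site (TGAGTCA, or TGACTCA on the other strand). RefSeq promoter windows from 250 bases before to 50 bases after the start site were given for 31 of 44 genes of the AP-1, Egr, effector and neuropeptide lists that were upregulated in either fit. The CRE was found in 4 of their 46 promoters (8.70%), those of Btg2, Pcsk1, Plk2 and Scg2, against 1.79% of 32851 promoters of all genes. Among all members of the 4 lists, upregulated or not, the share was 8.86% (7 of 79), so that the upregulated members did not stand apart from their lists. The AP-1 site was found in 2 of the 46 promoters (4.35%; Csrnp1 and Gpr3) and in 5.20% of all. A match is a description of the sequence, and binding was not measured. The 200 bases before the start site of the 4 promoters with a CRE (in capitals; GRCm38.p6, 5′ to 3′ in the direction of the gene) are given to show where it lies in each.
Scg2 (chr1:79440027-79440226, minus strand): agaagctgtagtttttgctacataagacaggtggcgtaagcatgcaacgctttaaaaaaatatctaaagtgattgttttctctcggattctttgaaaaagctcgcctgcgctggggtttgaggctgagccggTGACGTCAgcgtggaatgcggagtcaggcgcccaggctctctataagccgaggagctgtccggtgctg
Pcsk1 (chr13:75089657-75089856, plus strand): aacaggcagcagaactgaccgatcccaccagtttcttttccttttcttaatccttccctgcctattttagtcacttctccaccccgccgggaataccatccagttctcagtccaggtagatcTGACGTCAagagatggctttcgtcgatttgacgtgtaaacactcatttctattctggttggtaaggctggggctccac
Btg2 (chr1:134079156-134079355, minus strand): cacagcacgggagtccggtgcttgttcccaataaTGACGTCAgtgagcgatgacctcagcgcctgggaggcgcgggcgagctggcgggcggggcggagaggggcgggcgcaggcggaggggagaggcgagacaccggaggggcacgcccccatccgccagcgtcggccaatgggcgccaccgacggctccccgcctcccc
Plk2 (chr13:110394844-110395043, plus strand): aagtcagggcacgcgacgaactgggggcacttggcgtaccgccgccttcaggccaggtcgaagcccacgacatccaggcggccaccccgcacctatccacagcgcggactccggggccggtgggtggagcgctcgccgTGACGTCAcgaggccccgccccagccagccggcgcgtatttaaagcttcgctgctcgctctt
The CRE begins 68 bases before the start site in Scg2, 78 in Pcsk1, 62 in Plk2 and 166 in Btg2. Btg2 was called in both fits and the others with the block only, with a logFC of 1.64 for Btg2, 1.47 for Pcsk1, 1.53 for Scg2 and 0.77 for Plk2 in the fit without block.

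Among secreted growth factors, the activin subunit gene rose most. Of 23 activin and TGF-beta pathway genes, 3 were upregulated (Inhba, Pmepa1 and Acvr1c) and none downregulated; with the block 6 were upregulated (Smad7, Tgfb1 and Skil in addition) and 2 downregulated (Bambi and Inhbb). Inhba (ENSMUSG00000041324, chr13:16011851-16031621), which encodes the subunit of activin A, a neuronal growth factor induced by activity, had 20.6, 12.6 and 26.2 CPM in the SH and 314, 266 and 468 CPM in the KA libraries (logFC 4.14, SE 0.52, FDR 0.00628, called in 6 of 6 fits with logFC 3.87 to 4.39). Every KA library exceeded every SH library by a wide margin. Pmepa1, a membrane protein that sequesters SMAD proteins and limits TGF-beta signalling, had 22.8, 17.7 and 30.98 CPM in the SH and 97.03, 115 and 145 CPM in the KA libraries (logFC 2.32, SE 0.42, FDR 0.0581, called in 3 of 6 fits with logFC 2.14 to 2.55). The type 1 receptor gene Acvr1c (ALK7) rose from 44.7 ± 12.9 to 171 ± 45.5 CPM (logFC 1.93, SE 0.44, FDR 0.180, called in 1 of 6 fits with logFC 1.76 to 2.19). Smad7, an inhibitory SMAD, was called with the block (logFC 1.68, FDR 0.364, and 0.00166 with the block), as was Inhbb, the other activin subunit gene, in the opposite direction (logFC -1.38, FDR 0.987, and 0.155 with the block). The count of 3 became 1 without KA replicate 3 or SH replicate 1 or SH replicate 2, and the 2 downregulated members became 0 without pair 3, 1 without pair 2. Of 16 neurotrophin, GDNF family and receptor genes, none was called without the block in the full set. With it, Bdnf, Gdnf (logFC 2.77, FDR 0.108), a survival factor, and its receptor gene Gfra1 (logFC 1.46, FDR 0.00144) were upregulated and Ntf3 (logFC -2.36, FDR 0.00378), a neurotrophin typical of dentate granule cells, was downregulated.

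The list of MAP kinases and their inhibitors had more upregulated members with the block than without it. Of 26 MAP kinases, MAP kinase phosphatases (Dusp) and Sprouty proteins, 3 were upregulated without the block and 13 with it, 21 of 26 had a positive logFC, and the median was 0.67. Mapk4, an atypical MAP kinase, had 20.8, 43.5 and 40.98 CPM in the SH and 113, 153 and 216 CPM in the KA libraries (logFC 2.19, SE 0.44, FDR 0.0943, called in 1 of 6 fits with logFC 1.92 to 2.40). Spry2, an inhibitor of receptor tyrosine kinase signalling, rose from 12.4 ± 6.28 to 37.4 ± 9.63 CPM (logFC 1.59, SE 0.39, FDR 0.238, called in 0 of 6 fits with logFC 1.34 to 2.07) and Mapkapk3, a kinase downstream of p38, from 3.76 ± 1.37 to 16.05 ± 9.93 CPM (logFC 2.09, SE 0.48, FDR 0.172, called in 1 of 6 fits with logFC 1.47 to 2.43). The block added inhibitors of the same cascade (Spry4, Spred1, Spred2 and Spred3), the phosphatases Dusp1, Dusp4, Dusp5 and Dusp6, and the kinases Mapk6 and Mapkapk2, with logFC of 0.85 to 1.81. Dusp4, a nuclear phosphatase of ERK, had 9.62, 19.6 and 28.2 CPM in the SH and 40.4, 58.4 and 98.8 CPM in the KA libraries (logFC 1.78, FDR 0.590, and 0.00474 with the block) and Spred1 had 42.1, 75.4 and 71.4 CPM in the SH and 132, 208 and 216 CPM in the KA libraries (logFC 1.56, FDR 0.362, and 0.00110 with the block). Mapk3 (ERK1) was downregulated with the block (logFC -1.05, FDR 0.592, and 0.0423 with the block). The count of 3 became 0 without KA replicate 2 or KA replicate 3 or SH replicate 1 or SH replicate 2 or SH replicate 3; the blocked count of 13 became 4 without pair 3. Among 16 regulators of G protein signalling, Rgs4 alone was upregulated without the block and Rgs2, Rgs6, Rgs7, Rgs9 and Rgs20 with it, while Rgs11 (logFC -0.88, FDR 0.0647) and Rgs14 (logFC -0.86, FDR 0.108) were downregulated with it. The 6 upregulated members with the block became 1 without pair 3.

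Inducible chaperones rose while most other heat shock genes were not called. Of 25 heat shock and co-chaperone genes, 4 were upregulated (Hspa1a, Hspa1b, Hspb1 and Bag3) and 1 was downregulated (Hspa2), while the median logFC was -0.08. Hspa1b (ENSMUSG00000090877, chr17:34956436-34959238) and Hspa1a (ENSMUSG00000091971, chr17:34969190-34972156), neighbouring genes of the inducible HSP70, are near-identical copies. The authors counted uniquely mapped reads, so reads that fit both copies may be missing and the separate values of both genes are uncertain. Hspa1b had 17.4, 18.04 and 22.04 CPM in the SH and 167, 165 and 1621 CPM in the KA libraries (logFC 5.09, SE 0.90, FDR 0.0527, called in 4 of 6 fits with logFC 3.12 to 5.55). Hspa1a had 4.78, 5.69 and 7.67 CPM in the SH and 44.5, 82.4 and 838 CPM in the KA libraries (logFC 5.73, SE 1.02, FDR 0.0532, called in 4 of 6 fits with logFC 3.39 to 6.25). KA replicate 3 was by far the highest for both, although replicates 1 and 2 were also above all SH libraries. Hspb1 (HSP27), a small heat shock protein that binds actin and unfolded proteins, had 0.787, 0.717 and 0.327 CPM in the SH and 5.38, 5.41 and 26.1 CPM in the KA libraries (logFC 4.34, SE 0.86, FDR 0.0942, called in 2 of 6 fits with logFC 3.14 to 4.70), and Bag3, an HSP70 cofactor of selective autophagy, had 4.36, 5.14 and 3.84 CPM in the SH and 11.4, 10.4 and 28.1 CPM in the KA libraries (logFC 1.90, SE 0.41, FDR 0.133, called in 2 of 6 fits with logFC 1.29 to 2.15). Hsph1, a nucleotide exchange factor of HSP70, was added with the block (logFC 0.84, FDR 1.00, and 0.118 with the block). Hspa2, a constitutive HSP70 family member, was lower in KA, with 48.8, 45.4 and 40.7 CPM in the SH and 19.99, 20.7 and 16.1 CPM in the KA libraries (logFC -1.25, SE 0.30, FDR 0.214, called in 0 of 6 fits with logFC -1.32 to -1.14), and Cryab, a small heat shock protein abundant in oligodendrocytes, was downregulated with the block (logFC -0.86, FDR 1.00, and 0.0916 with the block). The 4 upregulated members became 0 without SH replicate 1 or SH replicate 2, 2 without KA replicate 3 or SH replicate 3, and Hspa2 was called in none of the 6 fits.

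The core of the heat shock element, GAANNTTC (a palindrome, N being any base), was present in 6 of 6 promoters of the 5 heat shock genes upregulated in either fit and in 11 of 27 promoters of all listed members, against 7.86% of all promoters. Listed members that hold it without being called include Dnaja1 (logFC -0.27, FDR 1.00), an HSP40 protein. The 200 bases before the start site of 2 members are shown with the motif in capitals, which begins 104 bases before the start in Hspa1b and 117 and 97 bases before it in Hspb1.
Hspa1b (chr17:34959239-34959438, minus strand): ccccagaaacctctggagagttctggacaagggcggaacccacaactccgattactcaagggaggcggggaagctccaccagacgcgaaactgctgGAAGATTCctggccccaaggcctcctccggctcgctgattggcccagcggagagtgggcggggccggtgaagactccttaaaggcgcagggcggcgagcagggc
Hspb1 (chr5:135887719-135887918, plus strand): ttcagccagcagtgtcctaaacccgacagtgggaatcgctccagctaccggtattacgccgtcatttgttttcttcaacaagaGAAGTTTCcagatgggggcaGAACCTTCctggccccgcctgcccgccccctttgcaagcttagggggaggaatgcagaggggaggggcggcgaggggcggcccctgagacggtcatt

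Other stress pathways had fewer called members. None of the 20 genes of the endoplasmic reticulum and integrated stress response was called in either fit, and their median logFC was -0.13; Hspa5, the chaperone BiP, had 497, 233 and 418 CPM in the SH and 443, 327 and 468 CPM in the KA libraries (logFC 0.11, FDR 1.00, and 0.984 with the block). Of 18 oxidative stress genes, Srxn1, which reactivates peroxiredoxins, rose from 35.3 ± 14.3 to 150.3 ± 54.7 CPM (logFC 2.09, SE 0.46, FDR 0.153, called in 1 of 6 fits with logFC 1.79 to 2.47) and Bach1, a repressor of Nrf2 targets, from 4.33 ± 1.60 to 13.5 ± 3.95 CPM (logFC 1.64, SE 0.39, FDR 0.208, called in 1 of 6 fits with logFC 1.37 to 1.86). The metallothionein genes Mt1 (logFC 1.77, FDR 0.402, and 0.0187 with the block) and Mt2 (logFC 2.69, FDR 0.946, and 0.0858 with the block; 73.5% of its exonic bases lie under a gene on the other strand) were added with the block, and both are also glucocorticoid-responsive. Among 15 p53 targets, Cdkn1a, the cyclin-dependent kinase inhibitor p21, had 4.36, 4.34 and 5.80 CPM in the SH and 19.7, 29.5 and 65.9 CPM in the KA libraries (logFC 2.99, SE 0.59, FDR 0.0893, called in 2 of 6 fits with logFC 2.35 to 3.30), and Mcl1, an antiapoptotic BCL2 family member, was called with the block (logFC 1.02, FDR 1.00, and 0.0300 with the block). The receptor genes of the glucocorticoid list included Nr3c1, the glucocorticoid receptor, which was downregulated with the block (logFC -0.73, FDR 1.00, and 0.211 with the block). These 3 calls without the block were lost without KA replicate 3 or any 1 SH library, and those of Bach1 and Srxn1 also without KA replicate 2.

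Cytokine signalling genes were led by Socs3. Of 22 IL-6 family and STAT3 genes, 3 were upregulated (Socs3, Clcf1 and Pim1). Socs3 (ENSMUSG00000053113, chr11:117966079-117970047), the feedback inhibitor of gp130 receptors, had 4.60, 4.97 and 3.31 CPM in the SH and 34.9, 87.1 and 167 CPM in the KA libraries (logFC 4.49, SE 0.66, FDR 0.0251, called in 6 of 6 fits with logFC 3.83 to 4.89). The KA libraries differed among themselves, but the lowest was far above SH. Clcf1, a cytokine of the IL-6 family, had 0.363, 2.28 and 0.653 CPM in the SH and 3.16, 8.99 and 14.1 CPM in the KA libraries (logFC 2.97, SE 0.64, FDR 0.142, called in 2 of 6 fits with logFC 2.45 to 4.07). Pim1, a STAT-induced kinase, had 1.69, 1.64 and 0.653 CPM in the SH and 6.41, 8.71 and 8.87 CPM in the KA libraries (logFC 2.59, SE 0.59, FDR 0.172, called in 1 of 6 fits with logFC 2.26 to 2.80; 14.5% of its exonic bases are overlapped by a gene on the other strand). With the block Stat3 itself (logFC 1.59, FDR 0.640, and 0.00782 with the block) and, at the edge of the threshold, Bcl3 (logFC 1.69), an NF-kB regulator, were added. The count of 3 became 1 without KA replicate 2 or KA replicate 3 or SH replicate 1 or SH replicate 3. None of 16 interferon-stimulated genes was called without the block, and Ifit1, Irf7 and Mx1 with it (logFC 1.54 to 2.16; 0 without pair 3). In the prostaglandin list of 13 genes, Ptgs2 was upregulated in both fits, and Ptgs1, Hpgd and Ptger2 with the block only. Ptgs1, the constitutive cyclooxygenase, had 7.32, 6.53 and 11.9 CPM in the SH and 21.01, 30.6 and 57.7 CPM in the KA libraries (logFC 2.09, FDR 0.259, and 2.81e-04 with the block). The synthase gene Ptgds, abundant in oligodendrocytes and meninges, was downregulated with the block (logFC -1.77, FDR 1.00, and 0.0646 with the block).

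Some genes associated with nerve injury rose in KA neurons. Of 24 such genes, 6 were upregulated (Vim, Anxa2, Emp1, Tnfrsf12a, Spp1 and Tm4sf1), 11 with the block and none downregulated in either fit, with a median logFC of 1.15. Vim, the intermediate filament of astrocytes and immature or injured cells, had 1.33, 1.60 and 4.45 CPM in the SH and 8.71, 12.6 and 30.5 CPM in the KA libraries (logFC 2.80, SE 0.56, FDR 0.0943, called in 3 of 6 fits with logFC 2.11 to 3.55). Anxa2, a calcium-dependent membrane-binding protein, had 2.06, 2.57 and 1.51 CPM in the SH and 4.95, 6.25 and 19.4 CPM in the KA libraries (logFC 2.32, SE 0.51, FDR 0.145, called in 2 of 6 fits with logFC 1.45 to 2.65), and Tnfrsf12a, the TWEAK receptor known from regenerating neurons, rose from 4.28 ± 0.956 to 18.04 ± 9.68 CPM (logFC 2.08, SE 0.48, FDR 0.187, called in 1 of 6 fits with logFC 1.54 to 2.30). These genes were below 10 CPM in every SH library. Emp1, an epithelial membrane protein, rose from 1.13 ± 0.318 to 7.96 ± 4.41 CPM (logFC 2.82, SE 0.62, FDR 0.146, called in 1 of 6 fits with logFC 2.48 to 3.21). Spp1 (osteopontin) rose from 2.11 ± 0.795 to 20.5 ± 14.6 CPM (logFC 3.28, SE 0.76, FDR 0.193, called in 1 of 6 fits with logFC 2.62 to 3.70), and 18.8% of its exonic bases are shared with a gene on the same strand. The block added Sprr1a, S100a10, Cd44, Ahnak2 and Tubb6 (logFC 1.42 to 4.82). The count of 6 became 0 without KA replicate 3 or SH replicate 1 or SH replicate 2, 1 without SH replicate 3, 2 without KA replicate 2.

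Several of these genes are also expressed by glia, so the markers of other cell types are given beside them. The summed level of 10 astrocyte markers was 171, 211 and 653 CPM in the SH and 227, 343 and 772 CPM in the KA libraries of neurons (exact permutation p = 0.5, two-sided, the smallest possible being 0.1). It was higher in KA in each of the 3 pairs, against at least 1289 CPM in each glial library. Replicate 3 was the highest in both groups. The injury calls above were lost without KA replicate 3, as also without SH replicate 1 or SH replicate 2. Gfap and Sox9 were upregulated and Slc7a10 was downregulated with the block. The sum of 10 microglial markers was 55.8 to 109.7 CPM in SH and 47.3 to 114 CPM in KA (exact permutation p = 0.9), and Siglech was downregulated with the block. For 8 oligodendrocyte markers the sums were 327 to 1279.6 CPM in SH and 145 to 703 CPM in KA (exact permutation p = 0.7), and Cnp was downregulated with the block. For oligodendrocyte precursors (5 markers), endothelial cells (7), pericytes (5) and blood leukocytes (6 of 7 tested) the exact p was 0.5 to 0.9, and SH and KA ranges overlapped; the sum of the precursor markers was lower in KA in each of the 3 pairs, and Gpr17 was downregulated with the block. No marker of any list was called without the block, and none was at 0 in all 6 libraries. The part of other cells in the results on injury, matrix and cytokine genes was not tested. The sum of 15 neuronal markers was 6389 to 11462 CPM in SH and 7155 to 9072 CPM in KA, and Rbfox3 had 168, 235 and 274 CPM in the SH and 161, 207 and 252 CPM in the KA libraries (logFC -0.12, FDR 1.00, and 0.990 with the block).

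Extracellular matrix genes included 2 of the most stable calls. Of 16 genes of lecticans, perineuronal nets and hyaluronan, 3 were upregulated (Acan, Tnc and Sulf1) and none downregulated. Acan (ENSMUSG00000030607, chr7:79053483-79115099), which encodes aggrecan, the core proteoglycan of perineuronal nets, had 2.78, 7.71 and 6.45 CPM in the SH and 68.1, 89.6 and 65.5 CPM in the KA libraries (logFC 3.71, SE 0.44, FDR 0.00477, called in 6 of 6 fits with logFC 3.39 to 4.0). Tnc, for the matrix glycoprotein tenascin-C, had 9.08, 8.98 and 4.78 CPM in the SH and 31.9, 26.8 and 42.9 CPM in the KA libraries (logFC 2.15, SE 0.38, FDR 0.0527, called in 3 of 6 fits with logFC 1.91 to 2.30), and Sulf1, for an enzyme that trims sulfate from heparan sulfate, rose from 10.3 ± 0.137 to 33.1 ± 11.2 CPM (logFC 1.68, SE 0.32, FDR 0.0742, called in 1 of 6 fits with logFC 1.41 to 1.91). With the block Cemip2, a hyaluronidase, and Sulf2 were upregulated, and Bcan (brevican; logFC -1.28, FDR 0.0203) and Hapln1, a link protein of the nets (logFC -1.45, FDR 0.0699), downregulated. The count of 3 became 1 without KA replicate 3 or SH replicate 1 or SH replicate 3. Of 24 syndecan, glypican and integrin genes, Sdc1 (ENSMUSG00000020592, chr12:8771323-8793715), a heparan sulfate proteoglycan of the cell surface, had 1.88, 3.96 and 2.49 CPM in the SH and 21.5, 31.1 and 47.3 CPM in the KA libraries (logFC 3.58, SE 0.43, FDR 0.00477, called in 6 of 6 fits with logFC 3.24 to 3.93). Its KA values were spread widely, all of them above SH. Sdc4, Itga2, Itga5, Itga9 and Itgav were added with the block and Itga8 and Gpc3 were downregulated with it; the 6 upregulated members became 1 without pair 3.

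Among 27 extracellular proteases and inhibitors, 4 were upregulated (Timp1, Pappa, Tll1 and Serpina3n). Timp1 (ENSMUSG00000001131, chrX:20870166-20874735), an inhibitor of matrix metalloproteinases, was nearly absent from SH, with 0, 0.211 and 0.449 CPM in the SH and 5.81, 3.82 and 13.04 CPM in the KA libraries (logFC 4.99, SE 0.75, FDR 0.0251, called in 6 of 6 fits with logFC 4.34 to 5.94). Pappa, a protease that frees insulin-like growth factors, had 5.45, 6.11 and 6.25 CPM in the SH and 25.03, 53.1 and 66.8 CPM in the KA libraries (logFC 3.02, SE 0.46, FDR 0.0251, called in 6 of 6 fits with logFC 2.72 to 3.34). Tll1, a tolloid-like metalloprotease that activates BMPs, had 4.30, 6.997 and 7.92 CPM in the SH and 54.1, 70.3 and 122 CPM in the KA libraries (logFC 3.68, SE 0.60, FDR 0.0369, called in 5 of 6 fits with logFC 3.28 to 3.91). The SH values of both lay close together, and KA replicate 3 was the highest library. Serpina3n, a secreted serpin known from reactive astrocytes, had 48.5, 30.9 and 70.3 CPM in the SH and 129, 228 and 213 CPM in the KA libraries (logFC 1.93, SE 0.46, FDR 0.214, called in 1 of 6 fits with logFC 1.68 to 2.26). Adam19, Adamts1 and Timp3 were upregulated and Serpini1 (neuroserpin; logFC -0.72, FDR 0.224) was downregulated with the block. The count of 4 became 2 without SH replicate 1.

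Genes of fast synaptic transmission had few calls. None of 22 AMPA, kainate and NMDA receptor subunits and auxiliary TARPs was called without the block, and their median logFC was 0.05, within a range of -1.56 to 0.84. Grik3, a kainate receptor subunit, was upregulated with the block (logFC 0.70, FDR 1.00, and 0.234 with the block; in 0 of 3 fits without a pair). Of the main AMPA receptor subunits, Gria1 had 745, 1749.6 and 2038 CPM in the SH and 1002, 1029 and 1177 CPM in the KA libraries (logFC -0.50, FDR 1.00, and 0.895 with the block) and Gria2 had 3389, 3367 and 5556 CPM in the SH and 2499, 2945 and 4147 CPM in the KA libraries (logFC -0.36, FDR 1.00, and 0.862 with the block), with overlapping groups in both. Of 19 GABA genes, Gabrd (ENSMUSG00000029054, chr4:155384980-155398112), the delta subunit of extrasynaptic GABA-A receptors of dentate granule cells, was downregulated, with 106, 53.2 and 90.5 CPM in the SH and 27.9, 17.9 and 23.1 CPM in the KA libraries (logFC -1.86, SE 0.42, FDR 0.169, called in 1 of 6 fits with logFC -2.10 to -1.65). Gabra5, the alpha5 subunit of extrasynaptic receptors, was downregulated with the block (logFC -1.06, FDR 0.703, and 0.0250 with the block). KA libraries lay below SH libraries for 5 of the 19 genes and above them for 0, against 4.45% and 5.27% of all genes tested. The Gabrd call was lost without KA replicate 1 or KA replicate 2 or KA replicate 3 or SH replicate 1 or SH replicate 3.

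Among 31 metabotropic glutamate, dopamine, serotonin and adrenergic receptors, 2 were upregulated. Drd1, the dopamine receptor that raises cAMP, had 15.5, 22.00 and 19.9 CPM in the SH and 49.3, 73.6 and 79.00 CPM in the KA libraries (logFC 1.81, SE 0.41, FDR 0.169, called in 1 of 6 fits with logFC 1.68 to 2.00), and Adra1a, an adrenergic receptor coupled to Gq, had 12.7, 18.8 and 28.7 CPM in the SH and 44.6, 71.7 and 107 CPM in the KA libraries (logFC 1.89, SE 0.43, FDR 0.180, called in 1 of 6 fits with logFC 1.54 to 2.24). The groups did not overlap in either. Grm7 (logFC 0.94, FDR 1.00, and 0.140 with the block) and Grm8 (logFC 1.46, FDR 0.314, and 0.0379 with the block), presynaptic metabotropic glutamate receptors, Drd4 and Adra2c were added with the block. In contrast, Grm5, the postsynaptic receptor coupled to Gq, had 528, 574 and 812 CPM in the SH and 398, 428 and 431 CPM in the KA libraries and was not called (logFC -0.61, FDR 1.00, and 0.439 with the block). Both calls without the block were lost without KA replicate 2, KA replicate 3 or any 1 SH library, and the 6 with it became 2 without pair 3.

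Of 51 potassium channel genes none was called without the block. KA libraries lay below SH libraries for 10 and above them for 4, against 4.45% and 5.27% of all genes tested. The 3 genes of the A-type current given next were called with the block only. Kcnd2 (Kv4.2), its pore-forming subunit, had 211, 220.3 and 264 CPM in the SH and 125, 148 and 142 CPM in the KA libraries (logFC -0.74, FDR 1.00, and 0.209 with the block), and Kcnip2, an accessory subunit, had 217, 172 and 433 CPM in the SH and 119, 82.04 and 96.7 CPM in the KA libraries (logFC -1.47, FDR 0.946, and 0.0221 with the block). Kcnip3 (DREAM, also a calcium-dependent transcriptional repressor) was higher in KA, with 42.2, 56.1 and 78.4 CPM in the SH and 109, 218 and 243 CPM in the KA libraries (logFC 1.69, FDR 0.348, and 7.30e-04 with the block). Also downregulated with the block were Kcnc2 and Kcnt2, and Kcnf1 was upregulated; the blocked counts of 2 up and 4 down became 1 without pair 1 or pair 3 for up and 0 without pair 3, 1 without pair 1 for down. Of 13 voltage-gated sodium and HCN channel genes, Scn3b, a beta subunit, was downregulated with the block (logFC -1.32, FDR 1.00, and 0.0362 with the block; 0 calls without pair 3) and Scn2a, an axonal sodium channel, was not called (logFC -0.30, FDR 1.00, and 0.920 with the block).

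The 36 calcium channel, store and calcium-binding genes held 1 downregulated member, Calb1 (calbindin), described with the dentate gyrus below, and 3 upregulated (Itpkc, Plce1 and Cacna1g) and 4 downregulated members with the block. Beside Calb1 these were Itpka (logFC -1.11, FDR 0.0404), a kinase of inositol trisphosphate in dendritic spines, Hpca (logFC -0.93, FDR 0.0458), the calcium sensor hippocalcin, and Itpr1 (logFC -0.75, FDR 0.212), the receptor for inositol trisphosphate. The 4 became 0 without pair 3, 2 without pair 2, 7 without pair 1. Cacna1g, a T-type calcium channel, had 44.7, 57.3 and 85.2 CPM in the SH and 84.4, 134 and 167 CPM in the KA libraries (logFC 1.04, FDR 1.00, and 0.0463 with the block). Of 28 synaptic vesicle and release genes, Sv2c, a vesicle protein of the SV2 family, was upregulated, with 15.1, 20.4 and 32.1 CPM in the SH and 82.1, 159 and 149 CPM in the KA libraries (logFC 2.53, SE 0.55, FDR 0.142, called in 1 of 6 fits with logFC 2.31 to 2.87), and Stxbp6 (amisyn), which binds SNARE proteins, was downregulated (logFC -1.54, SE 0.37, FDR 0.209, called in 0 of 6 fits with logFC -1.68 to -1.22). The median logFC of the vesicle list was -0.07. Among 37 axon guidance genes the median was -0.04, none was called without the block, and Sema3e, a secreted semaphorin (logFC 1.23, FDR 0.838, and 0.0225 with the block), and Sema4a (logFC 0.70, FDR 1.00, and 0.237 with the block) with it; without pair 3 neither was called.

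**Figure D3:**
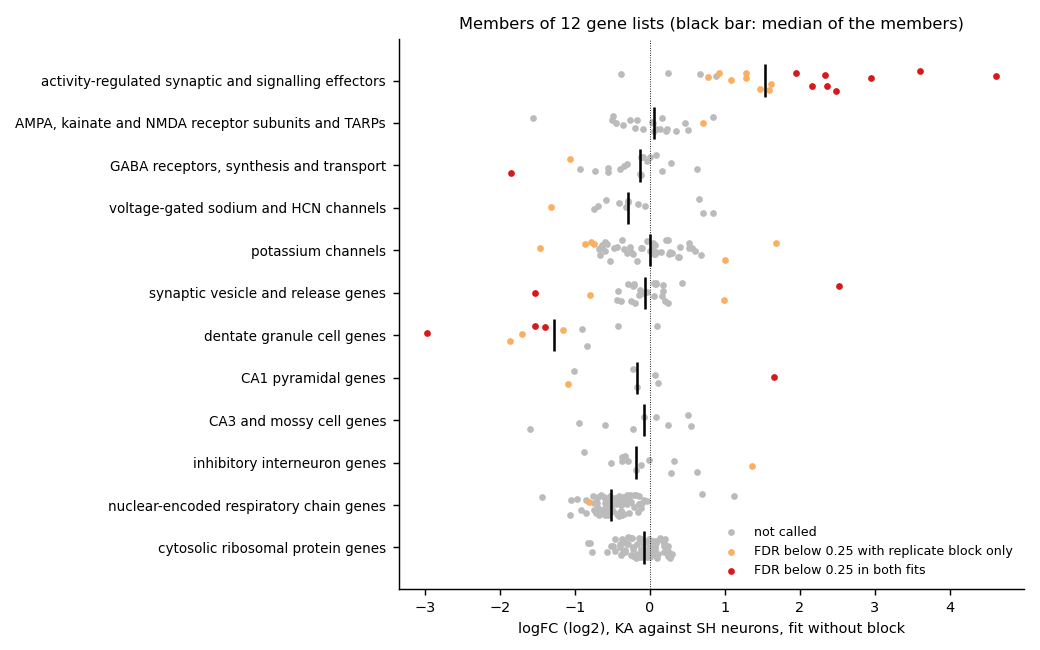
logFC (log2, KA against SH neurons, fit without block) of every tested member of 12 gene lists, 1 point per gene, with the vertical position within a row random. Red points are called (FDR below 0.25) in both fits, orange points with the replicate block only, and black bars mark the median of the members. The median is 1.53 for activity-regulated effectors, -1.28 for dentate granule cell genes and -0.52 for nuclear-encoded respiratory chain genes, and between -0.30 and 0.05 for the other 9 lists.

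Some dentate granule cell genes fell in KA neurons. Of 10 such genes, 3 were downregulated (Plk5, Stxbp6 and Calb1), and 6 with the block (C1ql2, Tdo2 and Lct in addition). KA libraries lay below SH libraries for 7, against 4.45% of all genes tested, and the median logFC was -1.28. The list was chosen with earlier results of these data known and holds Plk5 and Stxbp6, downregulated in the paper, so these values are a description only. Plk5 (ENSMUSG00000035486, chr10:80356459-80365489), a polo-like kinase of the brain without an active kinase domain, fell from 106 ± 20.9 to 13.6 ± 5.80 CPM (logFC -2.97, SE 0.48, FDR 0.0369, called in 5 of 6 fits with logFC -3.36 to -2.76) and was called in every fit but that without KA replicate 3. Calb1 (ENSMUSG00000028222, chr4:15881264-15908064), the calcium buffer calbindin, had 218, 125 and 168 CPM in the SH and 83.96, 60.5 and 49.9 CPM in the KA libraries (logFC -1.40, SE 0.33, FDR 0.213, called in 1 of 6 fits with logFC -1.62 to -1.18). Stxbp6 had 75.5, 73.05 and 129.7 CPM in the SH and 24.9, 37.1 and 33.6 CPM in the KA libraries. The groups did not overlap in any of these. C1ql2, a secreted synaptic organizer of mossy fibres, had 339, 201 and 280.2 CPM in the SH and 135, 119 and 113 CPM in the KA libraries (logFC -1.16, FDR 0.792, and 0.0137 with the block), Tdo2, tryptophan dioxygenase, had 22.3, 16.3 and 19.3 CPM in the SH and 11.2, 4.03 and 2.71 CPM in the KA libraries (logFC -1.70, FDR 0.657, and 0.0331 with the block) and Lct, lactase, had 27.3, 35.3 and 62.99 CPM in the SH and 11.9, 12.5 and 10.01 CPM in the KA libraries (logFC -1.87, FDR 0.408, and 0.0544 with the block). Prox1, the transcription factor that defines granule cells, did not follow the others, with 82.5, 148 and 219 CPM in the SH and 120.4, 171 and 188 CPM in the KA libraries (logFC 0.09, FDR 1.00, and 0.984 with the block) and overlapping groups. In bulk libraries of sorted nuclei, fewer granule cells and less RNA of these genes per granule cell cannot be told apart. The count of 3 became 0 without KA replicate 3, 1 without KA replicate 2 or SH replicate 1 or SH replicate 2 or SH replicate 3, and the blocked count of 6 became 2 without pair 3.

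Genes of other hippocampal neurons had fewer calls. Of 7 CA1 pyramidal genes, Nr4a1, which is also an activity-induced gene, was upregulated and Lmo1, a LIM-only transcriptional regulator, was downregulated with the block (logFC -1.10, FDR 0.703, and 0.161 with the block; 0 calls without pair 2 or pair 3); the median logFC was -0.17. None of 9 CA3 and mossy cell genes was called in either fit (median logFC -0.08), and of 13 inhibitory interneuron genes Npy alone was called, with the block (median logFC -0.18). KA libraries lay below SH libraries for 3 of the 7 CA1 genes and 3 of the 9 CA3 and mossy cell genes. They lay below for 0 of the 13 interneuron genes, and above for 1 gene in each list. Over all genes tested the shares were 4.45% below and 5.27% above, so falls without overlap were not limited to the dentate list. Gad1, the main enzyme of GABA synthesis, had 147, 143 and 193 CPM in the SH and 165, 218 and 205 CPM in the KA libraries (logFC 0.29, FDR 1.00, and 0.925 with the block), with overlapping groups.

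**Figure D4:**
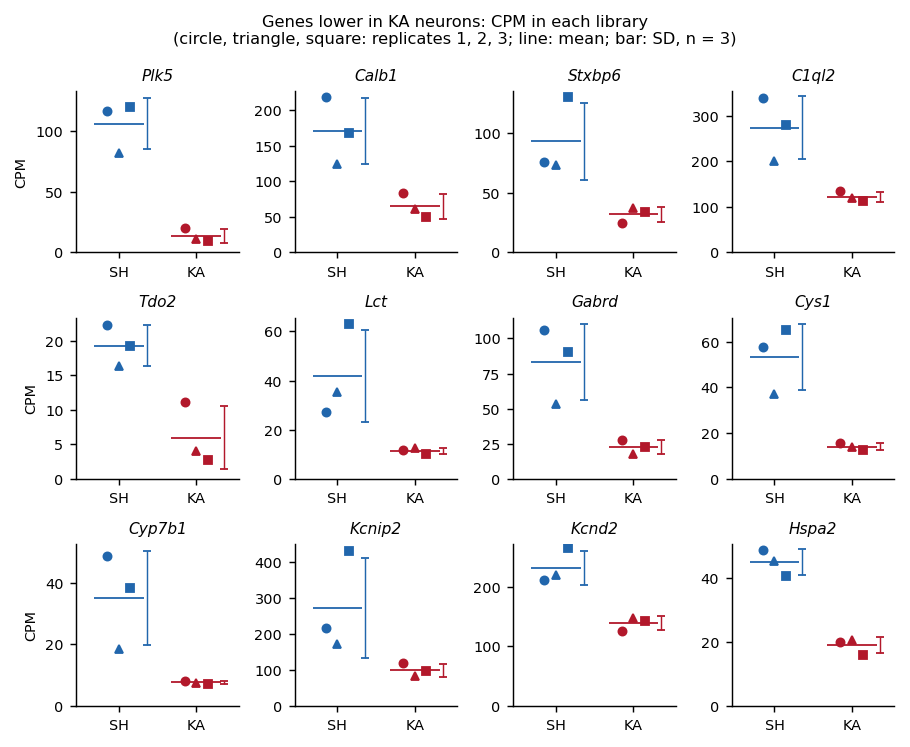
CPM (TMM-scaled read counts per 1000000) of 12 genes that were lower in KA neurons, in each of the 3 SH and 3 KA libraries; symbols mark replicates 1 to 3, horizontal lines the mean and bars the SD (n = 3), and each axis starts at 0. All KA points lie below all SH points. Plk5, Calb1, Stxbp6, Gabrd, Cys1, Cyp7b1 and Hspa2 were called in both fits, and C1ql2, Tdo2, Lct, Kcnip2 and Kcnd2 with the replicate block only.

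Among 28 genes of DNA methylation, GADD45 proteins and histone deacetylases, Gadd45g (ENSMUSG00000021453, chr13:51846678-51848468), a stress protein linked to DNA repair and demethylation, was upregulated, with 30.02, 13.7 and 24.9 CPM in the SH and 79.1, 117 and 299 CPM in the KA libraries (logFC 2.85, SE 0.50, FDR 0.0527, called in 3 of 6 fits with logFC 2.10 to 3.19); KA replicate 3 was the highest, and the call was lost without KA replicate 3 or SH replicate 1 or SH replicate 2. With the block, Tet3, the main neuronal enzyme that oxidizes methylated cytosine, was upregulated, with 71.7, 207 and 248 CPM in the SH and 379, 432 and 495 CPM in the KA libraries (logFC 1.31, FDR 1.00, and 0.0161 with the block), as were Gadd45b (logFC 2.19, FDR 0.662, and 0.0670 with the block), Kdm6b (logFC 1.51, FDR 0.418, and 0.0250 with the block), a histone demethylase, and Mbd2, a protein that binds methylated DNA. Without pair 3 the count of 5 was 2. No member was downregulated in either fit, and the median logFC was 0.07.

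In the cholesterol and oxysterol list of 15 genes, Cyp7b1 (ENSMUSG00000039519, chr3:18071950-18243338), the hydroxylase that breaks down oxysterols and neurosteroids, fell from 35.1 ± 15.3 to 7.60 ± 0.562 CPM (logFC -2.21, SE 0.42, FDR 0.0742, called in 2 of 6 fits with logFC -2.51 to -1.90). With the block, the lipid exporter Abca1 (logFC -0.86, FDR 1.00, and 0.237 with the block) and Apoe (logFC -1.03, FDR 1.00, and 0.0643 with the block), the lipoprotein of astrocytes, were downregulated. Of 83 nuclear-encoded respiratory chain genes, none was called without the block, yet 81 had a negative logFC, against 49.96% of all genes tested, with a median of -0.52 (-0.40 with the block). The shift was strongest in the first pair: 78, 44 and 66 of 83 genes were lower in KA in pairs 1, 2 and 3, and without SH replicate 1 the number with a negative logFC was 65 and the median -0.20. SH replicate 1 also had the highest share of reads from mitochondrial genes, 0.102%, against 0.0127 to 0.0406% in the other neuronal libraries; its part in the shift was not tested. Cox6c, a subunit of cytochrome c oxidase, was downregulated with the block (logFC -0.82, FDR 1.00, and 0.227 with the block). None of 80 cytosolic ribosomal protein genes was called, with a median logFC of -0.08. These were lower in KA mainly in the first pair (76, 20 and 17 of 80 genes in pairs 1, 2 and 3), and their median was 0.13 without SH replicate 1. Of 12 brain nuclear long noncoding RNAs, Neat1, which scaffolds paraspeckles, had 23.9, 42.1 and 204 CPM in the SH and 65.9, 146 and 380.2 CPM in the KA libraries, higher in KA within each pair but with overlapping groups (logFC 1.13, FDR 1.00, and 0.00909 with the block), and Miat had 569, 883 and 1436 CPM in the SH and 518, 462 and 605 CPM in the KA libraries (logFC -0.87, FDR 1.00, and 0.200 with the block; not called without pair 2 or pair 3).

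Further genes with large changes lay outside these lists. Gipr (ENSMUSG00000030406, chr7:19156061-19166127), the receptor for the incretin hormone GIP, which raises cAMP, had 5.93, 7.29 and 10.8 CPM in the SH and 51.1, 72.7 and 215 CPM in the KA libraries (logFC 3.81, SE 0.73, FDR 0.0742, called in 2 of 6 fits with logFC 2.95 to 4.16), with no overlap and KA replicate 3 by far the highest. Col27a1, a fibrillar collagen, was one of the 9 genes called in each leave-one-out fit, with 16.3, 23.9 and 15.3 CPM in the SH and 88.3, 186 and 302 CPM in the KA libraries (logFC 3.38, SE 0.50, FDR 0.0251, called in 6 of 6 fits with logFC 2.89 to 3.73). Among downregulated genes, Cxcl12 (ENSMUSG00000061353, chr6:117168535-117181367), a chemokine that guides neuronal precursors and is made by granule cells, had 73.9, 30.01 and 47.9 CPM in the SH and 14.6, 18.5 and 9.36 CPM in the KA libraries (logFC -1.84, SE 0.37, FDR 0.0943, called in 3 of 6 fits with logFC -2.10 to -1.46). Ogn (osteoglycin), a small leucine-rich proteoglycan, fell from 15.2 ± 6.15 to 2.41 ± 0.916 CPM (logFC -2.66, SE 0.57, FDR 0.133, called in 1 of 6 fits with logFC -2.94 to -2.36), Frzb, a secreted Wnt antagonist, from 31.8 ± 10.1 to 8.35 ± 3.95 CPM (logFC -1.94, SE 0.42, FDR 0.142, called in 2 of 6 fits with logFC -2.38 to -1.72) and Capn3, a calcium-dependent protease, from 18.4 ± 7.70 to 4.11 ± 0.505 CPM (logFC -2.16, SE 0.50, FDR 0.182, called in 1 of 6 fits with logFC -2.45 to -1.86). Cys1 (cystin), a protein of primary cilia, fell from 53.3 ± 14.4 to 14.2 ± 1.58 CPM (logFC -1.91, SE 0.34, FDR 0.0532, called in 2 of 6 fits with logFC -2.11 to -1.74) and Echdc2, a mitochondrial protein of the enoyl-CoA hydratase family, from 120.1 ± 34.3 to 32.3 ± 9.88 CPM (logFC -1.90, SE 0.37, FDR 0.0755, called in 2 of 6 fits with logFC -2.11 to -1.68). For these 6 downregulated genes, the groups did not overlap and SH replicate 2 was the lowest SH library. The call of Cxcl12 was lost without KA replicate 3 or SH replicate 1 or SH replicate 3, and the others in addition without KA replicate 2, those of Ogn and Capn3 also without KA replicate 1.

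To see which changes differed from those of the NeuN- nuclei (glia) of the same pools, the KA effects in both fractions were compared by an interaction term. Of the 105 genes upregulated in neurons, 97 also had a positive logFC in glia, with a median of 2.53 in neurons and 1.35 in glia in the fit without block, and of the 23 downregulated genes 21 had a negative one (medians -1.74 and -1.03). The genes were chosen by their change in neurons, so these medians are a description. In both edgeR fits, with and without the replicate block, the NeuN+ and NeuN- libraries of the same pool entered unpaired. Without the replicate block, no interaction passed an FDR of 0.25 in edgeR's test. At an unadjusted p below 0.05 in that test, 286 genes were more positive and 216 more negative in neurons. DESeq2, also without the block, called 20 and 19 at an FDR below 0.25. With the block, 109 genes were more positive (0.29%) and 42 more negative (0.112%) in neurons than in glia. Among the 128 genes called in neurons these were 16 upregulated genes with a more positive effect, Serpina3n with a more negative one, and 2 downregulated genes with a more negative effect.

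The values of single genes that follow are all from the fit with the block. Acan had logFC 3.80 in neurons and 0.56 in glia (difference 3.24, SE 0.49, FDR 0.00922 with the block), Gipr logFC 3.59 in neurons and -0.16 in glia (difference 3.75, SE 0.46, FDR 0.00256 with the block) and Col27a1 logFC 3.23 in neurons and -0.11 in glia (difference 3.34, SE 0.42, FDR 0.00256 with the block). In all of these the effect in glia was small beside that in neurons. Among activity genes, Arc had logFC 2.49 in neurons and 0.65 in glia (difference 1.84, SE 0.36, FDR 0.0492 with the block), Nr4a1 logFC 1.72 in neurons and 0.08 in glia (difference 1.64, SE 0.37, FDR 0.136 with the block) and Rrad logFC 4.77 in neurons and 0.94 in glia (difference 3.82, SE 0.85, FDR 0.120 with the block). The HSP70 genes also differed, with logFC 4.16 in neurons and 0.69 in glia for Hspa1b (difference 3.47, SE 0.66, FDR 0.0481 with the block). Sdc1 had logFC 3.57 in neurons and 1.70 in glia (difference 1.87, SE 0.48, FDR 0.237 with the block). Serpina3n went the other way, with logFC 1.95 in neurons and 4.38 in glia (difference -2.43, SE 0.45, FDR 0.0444 with the block). Of the downregulated genes, Cxcl12 had logFC -1.80 in neurons and 0.06 in glia (difference -1.86, SE 0.43, FDR 0.162 with the block). For Timp1, Socs3 and Atf3 the effect was large in both fractions, and no difference was called: Timp1 had logFC 5.04 in neurons and 4.72 in glia, Socs3 logFC 4.24 in neurons and 3.60 in glia and Atf3 logFC 4.46 in neurons and 3.55 in glia (FDR of the difference with the block 1.00, 1.00 and 1.00). A difference that misses the threshold does not show equal effects.

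**Figure D5:**
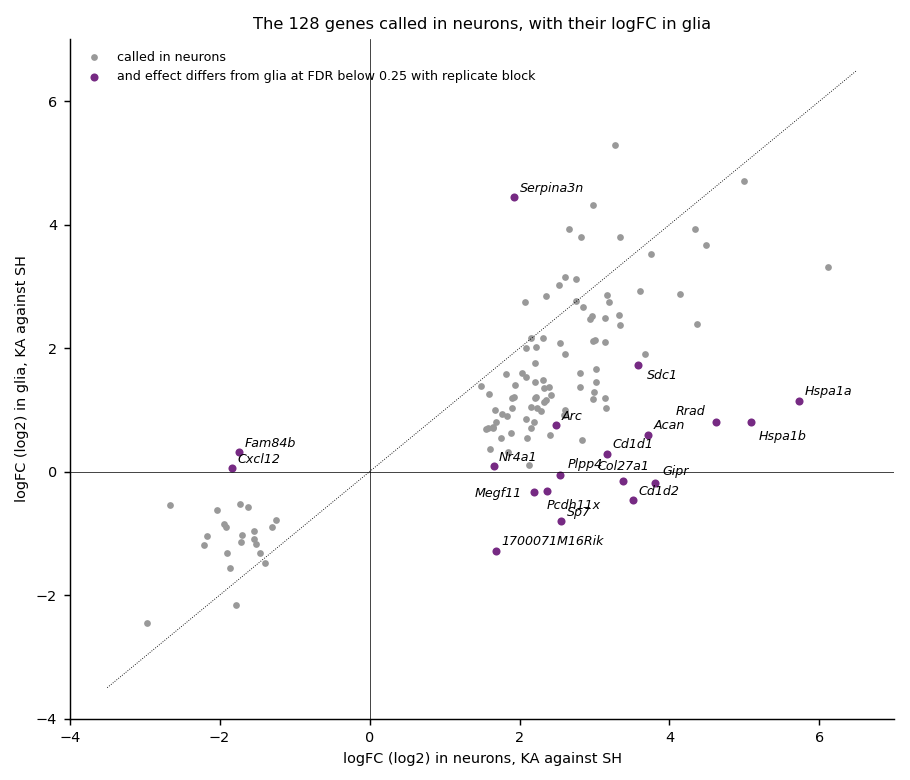
logFC (log2, KA against SH, fit without block) in neurons, horizontal axis, and in glia, vertical axis, of the 128 genes called in neurons; the dotted line marks equal effects. The 19 genes in purple, named beside the points, had an effect that differed between neurons and glia at an FDR below 0.25 with the replicate block, with Serpina3n above the line among the upregulated genes and the other 16 upregulated ones below it.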

How the data were processed

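The 6 mRNAseq libraries of NeuN+ nuclei (3 KA, 3 SH) were compared, fitted together with the 6 libraries of NeuN- nuclei; the 12 RRBS samples were not used here. The authors trimmed reads (Trim Galore 0.4.3, per the labels), aligned them to mm10 with Rsubread and used featureCounts with default settings to count reads for GENCODE M16 genes, and the deposited values are these raw counts, not normalized. Default counting ignores strand and leaves out reads that overlap more than 1 gene, which lowers counts of overlapping genes. Sequencing was done on 2 platforms, and which library ran on which is not given in the sources used here.

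Symbols and positions (GRCm38) were taken from GENCODE M21, and the 105 of 53379 genes without a symbol were left out. In edgeR 4.0.16 (R 4.3.3, limma 3.58.1), filterByExpr kept 37598 genes (minimum count 10, total 15), and TMM factors were computed. A quasi-likelihood model (glmQLFit, legacy=TRUE) with 4 group means was fitted, with Benjamini-Hochberg adjustment over all genes. The FDR threshold of 0.25 is that of the study. The study, however, treated neurons and glia separately. Its methods name autosomal data only, although its list of upregulated neuronal genes holds Timp1, which lies on chromosome X. Here, neuronal libraries alone gave 409 upregulated and 247 downregulated genes. The SE of a logFC is its size over the square root of F. In a second fit, the replicate number entered as a block, separately for neurons and glia. Deviations of same-numbered KA and SH libraries from their group means correlated across genes at 0.399, 0.264 and 0.551 for replicates 1, 2 and 3, above 0.1 in each. Among libraries of unlike number, KA replicate 1 with SH replicate 2 also passed 0.1, at 0.142, and the others were at -0.502 to -0.116. The numbers were taken to pair the pools, although the paper does not describe them as paired and these correlations come from the same data. Pools were separate sets of mice. The p-values rest on the spread between pools within the 4 groups, estimated over the NeuN+ and NeuN- libraries together. Libraries of both fractions from the same pool entered as separate libraries. With the block, the spread is what remains after the replicate terms. Levels are not scaled by gene length and were not compared between genes. Marker sums were compared by exact permutation tests. Leave-one-out fits kept all other libraries; with 2 libraries left in a group, the spread is pooled over groups. The scripts were tested on simulated data with the same design. DESeq2 1.42.0 and the other alternatives are given in the closing section.

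The comparison, the gene lists and the markers were chosen with earlier results of these data known. Genes were named by a rule: the 10 largest changes in each direction among called genes without overlap of the groups; in each list up to 4 members called without the block and up to 3 called only with it in each direction; in receptor and channel lists, and lists without calls, members with the highest mean CPM; Rbfox3 and cell type markers. Named outside it, after their values were seen, were Mir132, Mir212, Col27a1, Prox1, Gad1, Dnaja1, Plk2, Homer1, Penk, Btg2, Gpr3, Sik1, Sorcs3, Spp1, Tm4sf1, the genes of the closing observations and other called list members given by symbol. Some results are not reported here. RefSeq promoters and miRNAs (GRCm38.p6) were matched by symbol. Plots were made in Python 3.11.15 (matplotlib 3.10.9).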

Additional observations from a re-analysis of the deposited data

Results flagged for a closer look

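The KA effect differed between neurons and glia at an FDR below 0.25 in edgeR's test of the interaction with the replicate block, over all 37598 genes, for 17 of the genes named here. The difference of logFC (neurons minus glia) among genes called in neurons without the block was 3.24 for Acan (FDR 0.00922), 3.34 for Col27a1 (FDR 0.00256) and 3.75 for Gipr (FDR 0.00256). It was 1.84 for Arc (FDR 0.0492), 1.64 for Nr4a1 (FDR 0.136) and 3.82 for Rrad (FDR 0.120) among activity-induced genes. For the HSP70 genes, where reads that fit both copies may be missing, it was 3.80 for Hspa1a (FDR 0.0711) and 3.47 for Hspa1b (FDR 0.0481). It was 1.87 for Sdc1 (FDR 0.237). Negative differences were -2.43 for Serpina3n (FDR 0.0444), which rose in both fractions and more in glia, and -1.86 for Cxcl12 (FDR 0.162), which fell in neurons.

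Genes called in neurons with the block only also differed. The difference was 2.16 for Kcnip3 (FDR 0.00937), the calcium-dependent repressor and channel partner, 2.23 for Ptgs1 (FDR 0.0112), the constitutive cyclooxygenase, and 2.04 for Smad7 (FDR 0.0481), the inhibitory SMAD. For inhibitors of growth factor signalling it was 1.31 for Spred1 (FDR 0.214) and 1.84 for Spry4 (FDR 0.0945), and for the metalloproteinase inhibitor it was 1.54 for Timp3 (FDR 0.220). Without the block no difference passed the threshold in edgeR's test, and the lowest FDR among these genes was 0.444. Under other settings without the block, DESeq2 called 5 of the 17 (Acan, Col27a1, Gipr, Rrad and Serpina3n), and edgeR called 2 (Acan and Col27a1) with at least 10 counts in every neuronal library, without the low count filter or with protein-coding genes. With the block, 14, 12 and 7 of the 17 were called without pair 1, 2 or 3.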

How the results depend on the processing

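No alternative turned the direction of a named gene that was called without the block. The replicate block moved the counts of 105 upregulated and 23 downregulated genes to 730 and 417, and to 323 and 121 at an FDR of 0.05; without pair 1, 2 or 3 of the neuronal libraries the blocked counts were 594 and 281, 603 and 448, and 167 and 26. All 128 genes stayed called with the block. Neuronal libraries alone gave 409 and 247, and with the block 1009 and 699. At least 10 counts in every neuronal library gave 254 and 61, legacy=FALSE 194 and 59, DESeq2 305 and 151, protein-coding genes 194 and 48, and an FDR of 0.05 17 and 1. Without the low count filter 9 genes were downregulated. RLE size factors, autosomes and all gene IDs left both counts within 1.5 times of these. Leaving out 1 library gave 10 to 126 upregulated and 0 to 17 downregulated genes. Differences from glia numbered 0 more positive and 0 more negative without the block and 109 and 42 with it (28 and 13 at an FDR of 0.05; 128 and 59, 53 and 23, and 31 and 16 without pairs 1, 2 and 3), 4 and 5 without the filter, 6 and 6 with at least 10 counts, 20 and 19 with DESeq2, 5 and 5 with protein-coding genes, and 0 to 1 more negative with 1 library left out. The ratio of summed marker levels (KA over SH) changed side for astrocytes (1.30) without KA replicate 3 (range of the 6 values 0.826 to 2.34), for microglia (0.970) without KA replicate 1 or SH replicate 3 (0.781 to 1.18), for oligodendrocytes (0.640, 0.425 to 1.21) and their precursors (0.663, 0.502 to 1.02) without SH replicate 3, and for pericytes (0.954) without KA replicate 1 or SH replicate 2 (0.842 to 1.11). In fits without the block, the logFC changed sign without SH replicate 3 for Apoe (range -1.84 to 0.027) and Slc7a10 (-2.84 to 0.61), which were downregulated with the block only. Among named genes called in neither fit it changed sign for Hspa5 without SH replicate 2 (-0.14 to 0.34), Rbfox3 without KA replicate 1 or SH replicate 3 (-0.30 to 0.040), and Prox1 without KA replicate 3 or SH replicate 1 (-0.20 to 0.47) or, in the blocked fit, pair 1 (-0.0061). The causes were not tested.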

Other observations

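Called genes outside the lists, picked after their values were seen, included signalling and RNA-decay genes. Sstr2, a somatostatin receptor that inhibits neurons, had 29.4, 18.4 and 26.3 CPM in the SH and 84.05, 122 and 122 CPM in the KA libraries (logFC 2.15, SE 0.49, FDR 0.169, called in 1 of 6 fits with logFC 1.98 to 2.31). Zfp36 (tristetraprolin), which promotes decay of cytokine and immediate early mRNAs, had 2.42, 4.93 and 2.69 CPM in the SH and 8.54, 18.6 and 34.4 CPM in the KA libraries (logFC 2.61, SE 0.59, FDR 0.169, called in 1 of 6 fits with logFC 2.02 to 3.01). Trib1, a pseudokinase that targets proteins for degradation, had 6.36, 6.66 and 6.53 CPM in the SH and 26.5, 30.7 and 56.4 CPM in the KA libraries (logFC 2.54, SE 0.42, FDR 0.0379, called in 4 of 6 fits with logFC 2.13 to 2.74). All KA libraries were above all SH libraries in each. Ccn1 (CYR61), a matricellular protein, rose from 2.97 ± 1.05 to 26.3 ± 23.8 CPM (logFC 3.14, SE 0.60, FDR 0.0742, called in 3 of 6 fits with logFC 2.12 to 3.59), and Sphk1, the kinase that makes sphingosine 1-phosphate, from 6.53 ± 2.62 to 41.2 ± 25.1 CPM (logFC 2.66, SE 0.59, FDR 0.152, called in 1 of 6 fits with logFC 2.09 to 3.04).

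Downregulated genes outside the lists included Per3, a component of the circadian clock, with 266, 229.6 and 431 CPM in the SH and 139, 102 and 84.5 CPM in the KA libraries (logFC -1.51, SE 0.36, FDR 0.208, called in 0 of 6 fits with logFC -1.72 to -1.19), and Lrrn1, a leucine-rich repeat membrane protein, with 127, 89.7 and 152 CPM in the SH and 57.5, 36.2 and 32.98 CPM in the KA libraries (logFC -1.54, SE 0.37, FDR 0.214, called in 1 of 6 fits with logFC -1.82 to -1.36). The groups did not overlap in either, and Per3 was called in none of the fits that left out a library. Times of day at which tissue was taken were not used here.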
